A study of Homo sapiens with 2 samples.

Results

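The mRNAs described here are 10 that serve cell division: the proliferation marker MKI67, the topoisomerase TOP2A, the cyclins CCNA2, CCNB1 and CCNB2, the kinases CDK1, PLK1, AURKA and BUB1, and the phosphatase CDKN3. They were chosen by gene symbol from a deposited table of 14914 features, and all 10 were found there and passed the filter on low values (a mean of at least 1 RPKM, met by 9880 features). The assay, RIP-seq (sequencing of RNA immunoprecipitated with a protein), was run in HUH7, an established line of human hepatocellular carcinoma cells. There was 1 library of RNA recovered with CSTF2 (IP) and 1 library of input RNA (Input), with no treatment or genotype named in the labels for either. CSTF2 (CstF-64) makes the RNA contact of the cleavage stimulation factor, a complex that helps to cut pre-mRNAs ahead of polyadenylation. The series asks which RNAs of HUH7 cells this protein binds.

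Entry into mitosis is driven by CDK1 bound to cyclins A and B. The kinases PLK1 and AURKA help to switch that complex on and build the spindle, BUB1 acts in the checkpoint that holds cells until chromosomes are attached, and TOP2A and the Ki-67 protein act on the chromosomes themselves. Many genes of this programme have their highest mRNA levels in G2 and mitosis. Their mRNAs are used as markers of dividing cells in tumours, liver cancer included. In RNA from a whole culture, the share of dividing cells and the amount of each mRNA per dividing cell cannot be told apart.

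The 3' end is the part of an mRNA that the cleavage machinery handles. The last 30 bases of the principal GENCODE transcript are therefore shown for the mRNAs highest and lowest in the IP and for CCNB1, whose values lie apart from those of CCNB2. Capitals mark AATAAA, the poly(A) signal read by the cleavage and polyadenylation specificity factor. Coordinates are on GRCh38.
MKI67 (chr10:128096659-128096688, minus strand): AATAAAgtatgtgatgaaatggtcttaaaa
TOP2A (chr17:40388516-40388545, minus strand): aaaatgttctaaacattgcaacccatagaa
CCNB1 (chr5:69178216-69178245, plus strand): tggttAATAAAacaatactcaaatacaaaa
CCNB2 (chr15:59125016-59125045, plus strand): aaAATAAAgcgattggtttttcttaaggta
CDKN3 (chr14:54420189-54420218, plus strand): gcagatattcctaaagttttattgacaaaa

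Of the 10 mRNAs, 6 had AATAAA in these 30 bases, 2 (CDK1 and PLK1) had only the variant ATTAAA, and TOP2A and CDKN3 had neither string. Among 7595 protein-coding genes past the filter, AATAAA was found in 54.4%, ATTAAA alone in 13.0% and neither in 32.6%, on the transcript strand. MKI67 and CCNB2, on opposite sides of equality in the IP, both ended with AATAAA, 24 and 22 bases before the annotated end. The mRNA highest after MKI67 and the lowest mRNA both lacked these letters. Over all genes the median log2 ratio of IP over Input was 0.16 with AATAAA, 0.13 with ATTAAA and 0.13 with neither. The G- and U-rich element that CSTF2 is known to bind lies past the cleavage site, outside the transcript, and was not analysed here.

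The libraries held 3220045 assigned reads (IP) and 9517885 (Input), with medians of 44 and 116 reads a feature after filtering. Mitochondrially encoded features took 61.8% of the IP reads and 61.6% of the Input reads. The mRNA of CSTF2 itself, the protein pulled down, stood at 487 RPKM (IP) and 6.97 RPKM (Input). That is a ratio of 69.9 (59.2 to 83.1), at rank 1 of the features past the filter. What lies behind this difference was not tested. All 10 hepatoma markers checked were listed, with summed levels of 779 RPKM (IP) and 810 RPKM (Input). Most of both sums came from FGB (353 and 311 RPKM) and ALB (200 and 254 RPKM). The markers differed in their ratio of IP over Input, with a 95% interval above 1 for 3 of the 10 and below 1 for 6. Of 8 blood, stromal and endothelial markers, CD68, COL1A2 and LYZ were listed (summed level 5.44 RPKM and 3.35 RPKM). PTPRC, CD3E, COL1A1, PECAM1 and VWF were not among the listed features. CD68 had a ratio of 5.42 (2.57 to 12.0) on 22 and 12 reads, and the intervals of COL1A2 and LYZ include 1. With 1 library of each kind there are no replicates, no test was made, and every difference describes these libraries. The 95% intervals here and below come from read numbers and cover counting error only. Reads copied by PCR are not independent molecules, and unless such copies were removed the intervals can be too narrow.

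The 10 mRNAs did not behave as a block. In the IP, MKI67 and TOP2A were at least 2-fold higher, CCNB2 and CDKN3 lay at least 2-fold below the Input, and the other 6 lay within 2-fold, on the scale log2((IP + 1)/(Input + 1)) of RPKM values. RPKM is reads for each kilobase of gene, scaled to the total reads of a library, and the added 1 RPKM understates the change of low genes. Of all 9880 features, 9.88% passed 2-fold upward and 6.83% downward, so 2 of 10 in each direction is a small number of genes to set against those shares. The median log2 ratio of the 10 was 0.21, against 0.17 for all features and 0.15 for the 7626 protein-coding genes among them. Their range, from -2.46 to 2.07, spanned rank 133 (MKI67) to rank 9776 (CDKN3) of the 9880.

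**Figure D1:**
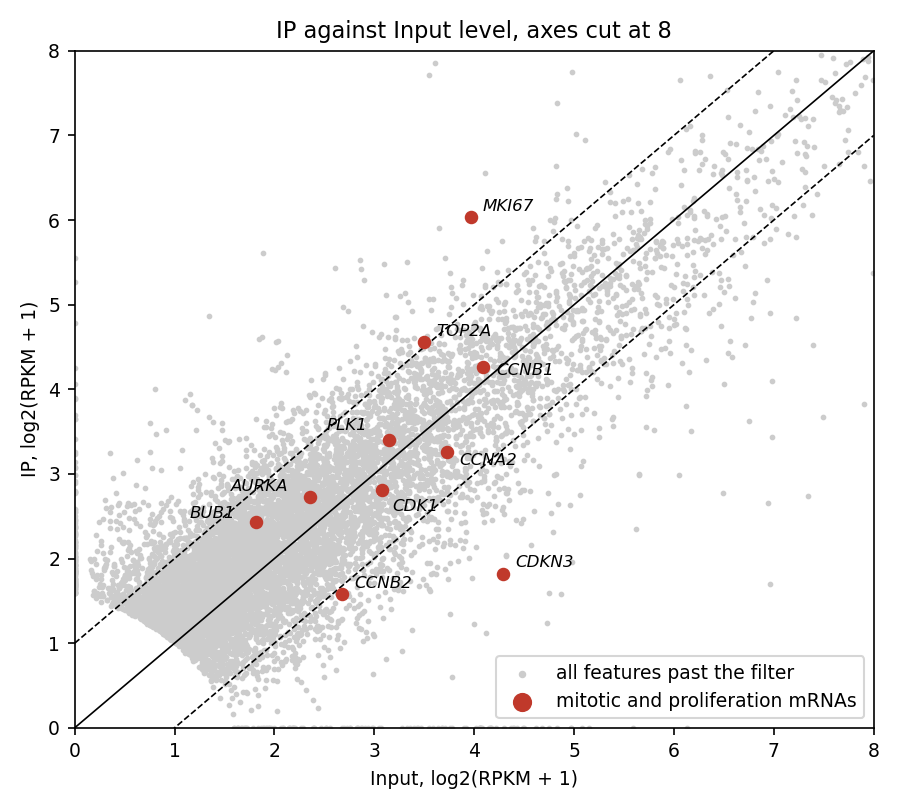
Level in the IP (vertical axis) against level in the Input (horizontal axis), both as log2(RPKM + 1), for all features past the filter (grey, axes stopped at 8) and the 10 mRNAs (red). The solid line is equality and the dashed lines are 2-fold. MKI67 and TOP2A lie above the upper dashed line, and CCNB2 and CDKN3 below the lower one.

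MKI67, which encodes Ki-67, a protein that coats mitotic chromosomes and is the standard stain for proliferating cells, stood highest. The gene (ENSG00000148773) lies on chromosome 10 from 128096659 to 128126385 on the minus strand. It had 64.7 RPKM in the IP (2668 reads) and 14.6 RPKM in the Input (1779 reads), a ratio of 4.43 (95% interval 4.17 to 4.71). The IP held more MKI67 reads than the Input did, although the Input was 2.96 times deeper. It had more reads than any other of the 10 in both libraries, and its interval is the narrowest relative to the ratio.

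TOP2A (ENSG00000131747), for the topoisomerase that untangles sister chromatids, lies on chromosome 17 from 40388516 to 40417950. Its level was 22.5 RPKM in the IP (467 reads) and 10.3 RPKM in the Input (631 reads), a ratio of 2.19 (1.94 to 2.47), so the interval reaches below 2-fold. Its log2 ratio on the pseudocount scale, 1.06, is just past the 2-fold line. It dropped to 0.89 when ratios were centred on the median of all features and to 0.85 with a pseudocount of 5 RPKM, and TOP2A was then no longer called. The paralog TOP2B, which is not tied to division, stood at 12.3 and 6.43 RPKM (IP and Input), for a ratio of 1.91 (1.62 to 2.26). The intervals of these paralogs overlap.

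Among the cyclins and their kinase, the ratios ran from near equality to lower in the IP. CCNB1 encodes cyclin B1, the main partner of CDK1 in mitosis (chromosome 5, 69167010 to 69178245). It had 18.2 RPKM in the IP (150 reads) and 16.1 RPKM in the Input (391 reads), a ratio of 1.13 with an interval that includes 1 (0.933 to 1.37). Its log2 ratio of 0.17 turned to -0.00191 on centring by the median of all features and to -0.05 with trimmed mean scaling. CCNB2 encodes cyclin B2, the form found mostly at the Golgi (chromosome 15, 59105078 to 59125045). It had 2.00 RPKM in the IP (18 reads) and 5.4 RPKM in the Input (144 reads), 2.71-fold lower (1.65 to 4.70). The B-type cyclins thus differed, with intervals that do not overlap, although CCNB2 rests on only 18 reads in the IP. With a pseudocount of 5 RPKM its log2 ratio was -0.57 in place of -1.10, within 2-fold.

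CCNA2, for cyclin A2, which works from S phase into early mitosis (chromosome 4, 121816444 to 121823933), had 8.55 RPKM in the IP (77 reads) and 12.2 RPKM in the Input (325 reads). That is 1.43-fold lower (1.11 to 1.86), an interval below equality but well short of 2-fold. A stretch of 254 exon bases of CCNA2 overlaps EXOSC9 on the opposite strand. Whether reads there were assigned by strand is not known. EXOSC9 had 66 IP reads and 154 Input reads. CDK1, the kinase itself (chromosome 10, 60778331 to 60794852), had 6.0 RPKM in the IP (76 reads) and 7.46 RPKM in the Input (279 reads). Its ratio was 0.805, with an interval that includes 1 (0.616 to 1.04). CDK2, the S phase paralog, stood at 5.10 and 5.13 RPKM (IP and Input), for a ratio of 0.996 (0.738 to 1.33), and the intervals of the kinases overlap. Of the other cyclins of these families, CCNB3 rested on 4 and 2 reads, and CCNA1 was not among the listed features.

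CDKN3 encodes a phosphatase that removes the activating phosphate of CDKs (chromosome 14, 54396849 to 54420218). It was the lowest of the 10 by ratio and, in the Input, the highest by level. It had 2.54 RPKM in the IP (15 reads) and 18.5 RPKM in the Input (323 reads), 7.29-fold lower (4.35 to 13.2). This was the only lower mRNA of the 10 whose whole interval lay beyond 2-fold, and MKI67 was the only higher one. Across the 9879 features past the filter with recovered reads, 6.76% had an interval above 2 and 2.87% an interval below 0.5.

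Unlike CDK1, the kinases BUB1, AURKA and PLK1 had ratios above 1, also on centring and with trimmed mean scaling, and all 3 lay within 2-fold. The interval of CDK1 (0.616 to 1.04) overlaps those of AURKA and PLK1 but not that of BUB1. BUB1, the checkpoint kinase (chromosome 2, 110637698 to 110678114), had 4.38 RPKM in the IP (85 reads) and 2.53 RPKM in the Input (145 reads), a ratio of 1.73 (1.31 to 2.28). AURKA, the spindle pole kinase (chromosome 20, 56369389 to 56392337), had 5.62 RPKM (53 reads) and 4.13 RPKM (115 reads), a ratio of 1.36 (0.965 to 1.90). PLK1, the polo kinase that acts from mitotic entry to cytokinesis (chromosome 16, 23677656 to 23690367), had 9.53 RPKM (146 reads) and 7.86 RPKM (356 reads), a ratio of 1.21 (0.993 to 1.47). PLK1 shares 553 exon bases with AC008870.3 and 42 with ERN2, which were not among the listed features. Only the interval of BUB1 excludes 1. In all, 3 of the 10 (MKI67, TOP2A and BUB1) had an interval above 1, against 36.1% of features past the filter with recovered reads. Another 3 (CCNA2, CCNB2 and CDKN3) had an interval below 1, against 20.1%.

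**Figure D2:**
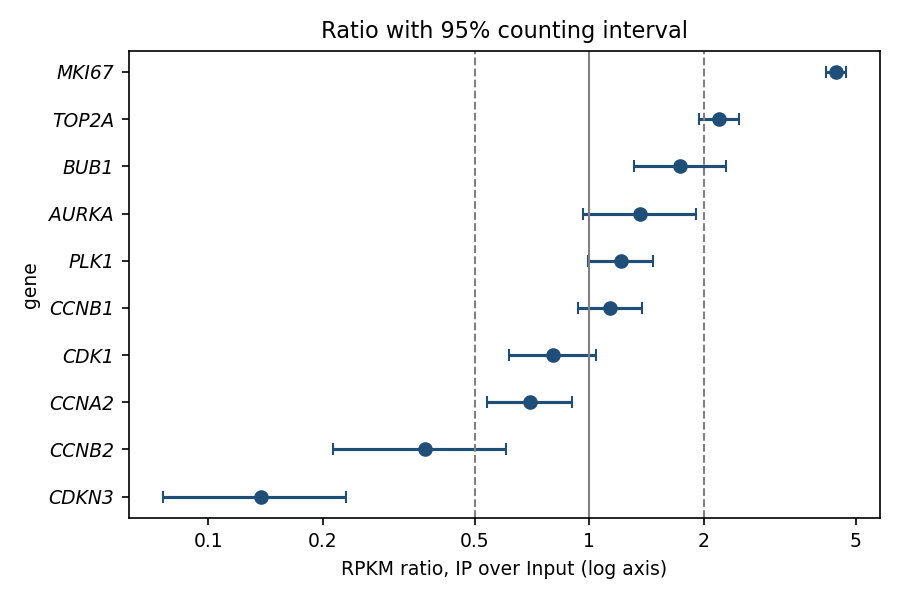
Ratio of RPKM, IP over Input (log axis), for each of the 10 mRNAs, with bars for the 95% counting interval. The solid line is 1 and the dashed lines are 0.5 and 2. MKI67 at 4.43 and CDKN3 at 0.137 have intervals wholly beyond 2-fold, and the intervals of CCNB1, CDK1, PLK1 and AURKA cross 1.

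The closest relatives of these 3 kinases also had ratios above 1, as did most features past the filter (median log2 ratio 0.17). The intervals of BUB1B and AURKB exclude 1, and 36.1% of features past the filter with recovered reads had an interval above 1. The intervals of PLK2, PLK3 and PLK4 include 1. BUB1B, for the checkpoint pseudokinase BUBR1, stood at 13.3 and 6.71 RPKM (IP and Input), for a ratio of 1.98 (1.64 to 2.39). About 10.2% of its exon bases are shared with the readthrough BUB1B-PAK6. AURKB, the kinase of the chromosomal passenger complex, had a ratio of 1.43 (1.13 to 1.81). PLK2 had a ratio of 1.39 (0.930 to 2.05), PLK4, which starts centriole duplication, 1.5 (0.949 to 2.33), and PLK3, under the filter with 10 and 20 reads, 1.48 (0.618 to 3.31). AURKA lies head to head with CSTF1, the gene of another cleavage stimulation factor subunit, which starts 34 bases from the start of AURKA on the opposite strand. CSTF1 had a ratio of 0.985 (0.522 to 1.77), on 16 and 48 reads.

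The order of levels changed between the libraries. In the Input, CDKN3 at 18.5 RPKM, CCNB1 at 16.1 RPKM and MKI67 at 14.6 RPKM led, and BUB1 at 2.53 RPKM was lowest. In the IP, MKI67 at 64.7 RPKM and TOP2A at 22.5 RPKM led, and CDKN3 at 2.54 RPKM and CCNB2 at 2.00 RPKM were lowest. Exact Poisson intervals of neighbours overlapped for 5 of 9 neighbouring pairs in the Input and for 7 of 9 in the IP. In the IP the steps without overlap were from MKI67 to TOP2A and from CCNB1 to PLK1. In the Input they were from MKI67 to CCNA2, TOP2A to PLK1, CDK1 to CCNB2 and AURKA to BUB1. Overlap of 2 separate intervals does not by itself place a step within counting error, and the steps were not compared directly.

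**Figure D3:**
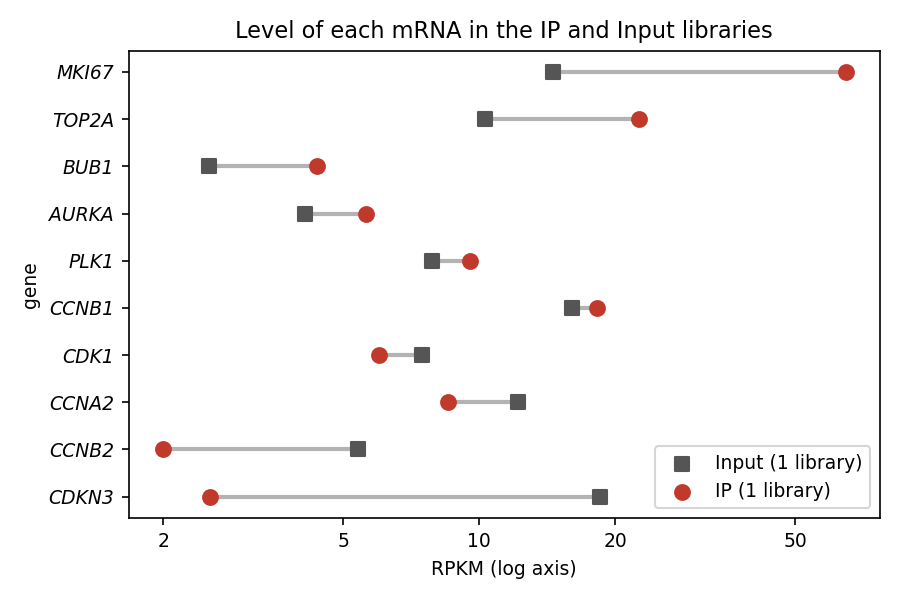
Level of each mRNA in RPKM (log axis) in the Input library (grey squares) and the IP library (red circles), ordered by log2 ratio from MKI67 at the top to CDKN3 at the bottom. The Input levels lie between 2.53 and 18.5 RPKM and the IP levels between 2.00 and 64.7 RPKM.

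The order of the ratios followed the length of the mRNAs. The coding sequences ran from 636 bases (CDKN3) to 9768 bases (MKI67), and the 3 longest, those of MKI67, TOP2A (4593 bases) and BUB1 (3255 bases), belong to the 3 highest ratios. Across the 10 genes, Spearman's rho between log2 ratio and coding length was 0.88, and it was 0.87 with exon length. Across 7595 protein-coding genes, which share the same libraries, rho was 0.57 with coding length, 0.40 with the length of the principal transcript, 0.27 with its GC percentage and 0.09 with the length of the 3' UTR. These are descriptions across genes, which are not independent replicates.

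When protein-coding genes were placed in 10 groups by coding length, the median log2 ratio went from -0.65 in the shortest group (72 to 489 bases) to 0.71 in the longest (3522 to 100269 bases). In the longest group 23.6% of genes were at least 2-fold higher, and in the shortest 2.11%. At least 2-fold lower were 28.4% of the shortest group and 0.132% of the longest. Of the 10 mRNAs, 5 (CCNB1, CDK1, PLK1, AURKA and BUB1) lay within the middle 50% of genes of like coding length. PLK1, at a log2 ratio of 0.25, was close to its group's median of 0.26.

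Within these groups the distances from the median varied. MKI67 was 1.36 above its group's median on the log2 scale, at rank 7 from the top of 760 genes. That group is open to very long genes and has a median coding length of 4749 bases, far under the 9768 of MKI67, so it is not a comparison with genes of like length. CDKN3 was 2.18 below its group's median and had the lowest log2 ratio of 756 genes of 492 to 690 coding bases. CCNB2 was 1.20 below its group's median, at rank 6 from the bottom of 759 genes. CCNA2, CCNB1 and AURKA belong to that same group of 1125 to 1347 coding bases. CCNA2 was 0.58 below the median, CCNB1 0.06 above and AURKA 0.26 above. TOP2A, although at least 2-fold higher, was 0.35 above the median of its group, at rank 150 of 760.

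**Figure D4:**
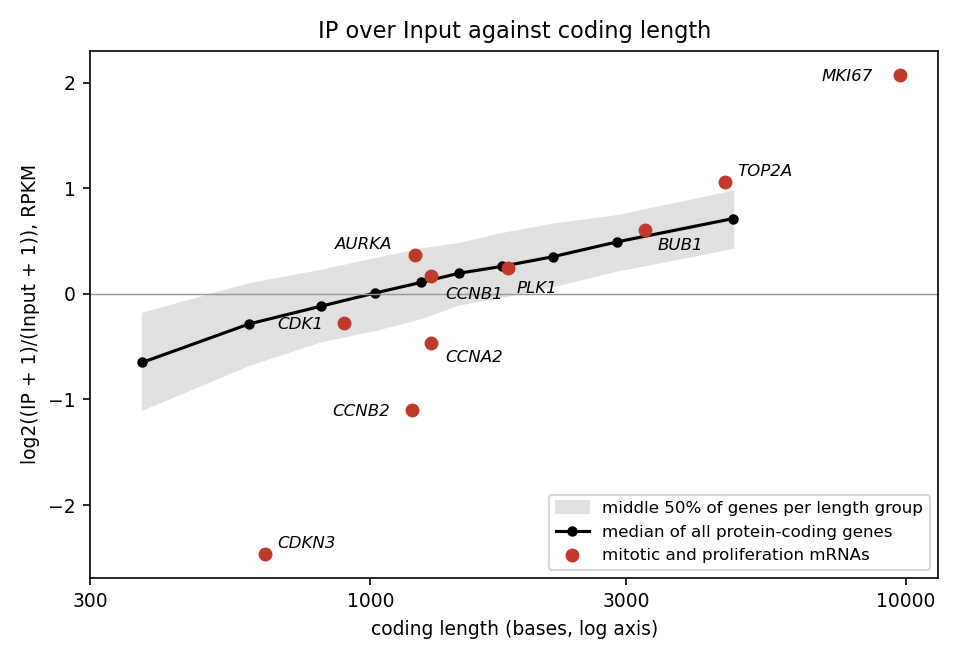
Log2 ratio of IP over Input (vertical axis, with a pseudocount of 1 RPKM) against coding length in bases (log axis). Black points are medians of 10 groups of protein-coding genes, the grey band is the middle 50% of genes in each group, and red points are the 10 mRNAs. TOP2A lies above the band, CCNA2, CCNB2 and CDKN3 below it and 5 inside it, and MKI67 lies past the right end of the band, which stops at the longest group's median length, and above that group's middle 50%.

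The promoters of these genes hold shared letters, also where the ratios differ. In the RefSeq promoters (GRCh38.p14, 250 bases before to 50 after the start, both strands searched), 9 of the 10 genes, all but AURKA, had an entry. They had 10 promoters between them. The CCAAT box, bound by NF-Y, was present in all 10 promoters, against 34.6% of 35116 promoters. The cell cycle homology region (CHR) was searched as TTTGAA or TTCGAA. Through it the DREAM and MuvB complexes hold back and then switch on G2 and mitotic genes. It was present in 8 of the 10 promoters, from 7 genes, against 16.4% of all promoters. Both motifs were present in 8 promoters, from 7 genes, against 6.38%. The 100 bases before the RefSeq start are shown for MKI67, PLK1 and CCNB2, which have TTTGAA at the same distance of 29 bases before the start and ratios of 4.43, 1.21 and 0.369. Capitals mark TTTGAA and CCAAT or its reverse, ATTGG, and in MKI67 a TTTGAA overlaps an ATTGG.
MKI67 (chr10:128126424-128126523, minus strand): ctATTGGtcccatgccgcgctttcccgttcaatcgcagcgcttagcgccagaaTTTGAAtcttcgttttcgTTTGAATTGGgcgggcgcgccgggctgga
PLK1 (chr16:23678789-23678888, plus strand): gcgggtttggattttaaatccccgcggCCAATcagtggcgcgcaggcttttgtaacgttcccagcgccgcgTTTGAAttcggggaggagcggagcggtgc
CCNB2 (chr15:59105046-59105145, plus strand): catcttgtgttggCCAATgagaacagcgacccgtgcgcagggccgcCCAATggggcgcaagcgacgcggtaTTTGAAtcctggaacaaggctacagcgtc
These matches describe letters in a window, not bound sites. CCNA2 and CCNB1 had no CHR match in this window.

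Most of the wider mitotic machinery lay within 2-fold, as did most features past the filter. Of 134 genes past the filter in 8 further lists, 11 lay at least 2-fold above the Input and 6 at least 2-fold below it (8.21% and 4.48%). Over all 9880 features the shares were 9.88% and 6.83%. The median log2 ratio of the 134 was 0.10, against 0.17 for all features. Within 2-fold is not equality, since 50 of the 134 had an interval above 1 and 33 an interval below 1. Among features past the filter with recovered reads, 36.1% had an interval above 1 and 20.1% an interval below 1. From each list the 2 highest and 2 lowest genes on the pseudocount scale are named, with their plain ratios, and genes of low level can have a more extreme plain ratio than those named. In the anaphase promoting complex and its activators and substrates (20 genes, median -0.03), CDC20, the activator that BUB1 and its partners hold in check, was 3.79-fold higher (3.18 to 4.52). UBE2C, its ubiquitin-conjugating enzyme, was 2.15-fold higher (1.81 to 2.55). The small subunits ANAPC16 and ANAPC15 were 3.53-fold (2.18 to 6.09) and 2.8-fold lower (1.99 to 4.03). Of the ANAPC15 exon bases, 27.1% are shared with LRTOMT on the opposite strand.

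Among the partners and paralogs of aurora and polo kinases (11 genes, median 0.38), the chromosomal passenger subunits CDCA8 at 3.60-fold (2.91 to 4.46) and INCENP at 2.86-fold (2.53 to 3.23) were higher. MASTL at 1.60-fold lower (1.02 to 2.64) and NEK2 at 1.14-fold lower (0.920 to 1.42) were at the other end, within 2-fold. Among 19 regulators of CDK1 and other cyclins and CDKs (median 0.23), CDC25C, a phosphatase that activates CDK1, was 2.68-fold higher (1.77 to 4.03). CDC25B had a ratio of 2.00 (1.64 to 2.44), just short of 2-fold on the pseudocount scale. CDK7, of the CDK-activating kinase, was 5.33-fold lower (2.62 to 12.6) on 8 and 126 reads, and CKS2 was 1.85-fold lower (1.35 to 2.60).

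The spindle checkpoint list (11 genes, median 0.12) had no gene past 2-fold on the pseudocount scale. BUB1B and, at 1.88-fold higher (1.55 to 2.27), MAD1L1 were highest on that scale. KNTC1, named after its value was seen, had a higher plain ratio of 2.28 (1.67 to 3.09) at only 2.11 RPKM in the IP. MAD2L1 at 2.63-fold lower (1.77 to 4.06) by plain ratio, still within 2-fold on the pseudocount scale, and ZWILCH at 1.72-fold lower (1.08 to 2.86) were lowest. Of 29 kinetochore and centromere genes (median -0.19), CENPF at 2.8-fold (2.54 to 3.09) and CENPE at 2.63-fold (2.21 to 3.14) were higher. CENPN at 3.08-fold (2.05 to 4.82), MIS18A at 3.38-fold (1.64 to 8.10) and CENPQ were lower. In the condensin, cohesin and topoisomerase list (21 genes, median 0.30), the cohesin subunit SMC1A was 2.54-fold higher (2.39 to 2.70) and the condensin subunit SMC2 had a ratio of 2.10 (1.73 to 2.54). RAD21 at 1.36-fold lower (1.20 to 1.54) and SGO1 at 1.14-fold lower (0.925 to 1.42) were the lowest there on the pseudocount scale.

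For cytokinesis (10 genes, median 0.25), CIT at 3.92-fold (3.06 to 5.04) and PRC1 at 2.30-fold (2.05 to 2.59) were higher, and RACGAP1 at 1.75-fold lower (1.05 to 3.08) and CKAP2 at 1.51-fold lower (1.16 to 1.98) were lowest. Among 13 regulators that switch mitotic genes on or off (median 0.00236), E2F1 was 3.57-fold higher (2.39 to 5.35) and E2F3 had a ratio of 2.21 (1.52 to 3.19). LIN54, the subunit that reads the CHR, was 2.24-fold lower (1.48 to 3.52) by plain ratio, and E2F8 1.94-fold lower (1.11 to 3.62), both within 2-fold on the pseudocount scale. Exon overlaps with a gene on the opposite strand also touch SGO1 (17.7% of its exon bases), CENPN (12.8%), MASTL (12.2%), CDC25C (8.78%), RAD21 (8.37%), ZWILCH (7.61%) and PRC1 (7.35%). ANAPC16 shares 3.21% with ASCC1, RAD21 also 5.83% with RAD21-AS1, and ZWILCH also 3.26% with RPL4. RPL4 had 653 IP reads and 3377 Input reads, against 22 and 112 for ZWILCH. Part of the reads of all these genes may therefore belong to the overlapping gene.

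**Figure D5:**
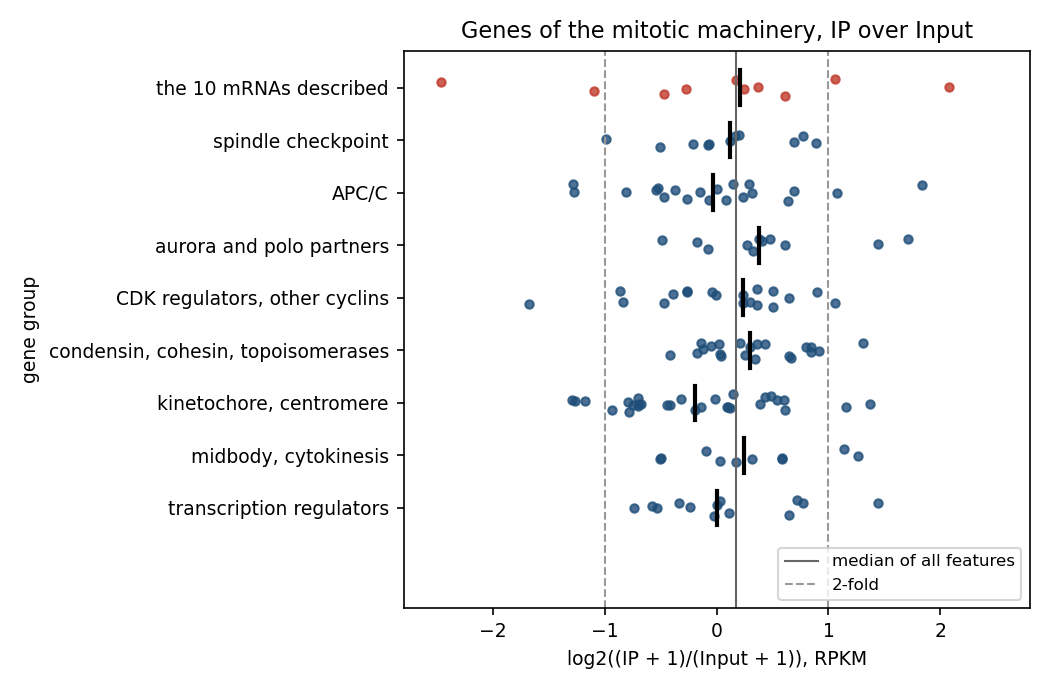
Log2 ratio of IP over Input (horizontal axis, pseudocount of 1 RPKM) for the 10 mRNAs (red) and for genes of 8 lists of the mitotic machinery (blue), 1 point a gene. Black bars are list medians, the solid line is the median of all features (0.17) and the dashed lines are 2-fold. The list medians lie between -0.19 and 0.38, and the 10 mRNAs reach from -2.46 to 2.07.

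By distance in log2(RPKM + 1) over the IP and Input, the 3 features nearest MKI67 were CTD-2012K14.3 (ratio 5.11, 3.36 to 7.88), AC109333.10 (2.87, 2.15 to 3.82) and AC025918.2 (2.96, 2.03 to 4.30), the last annotated as a processed pseudogene. The 3 nearest CDKN3 were MTRNR2L8 (ratio 0.164, 0.0858 to 0.285), a near copy of the mitochondrial MT-RNR2 whose reads may be shared, BCYRN1 (0.164, 0.0192 to 0.638) on 2 and 36 reads, and the mRNA ZNF593 (0.164, 0.0590 to 0.369). With only 2 libraries, likeness here means no more than a like level in each.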

How the data were processed

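Per the file headers, the authors deposited RPKM values of 14914 features for 1 IP and 1 Input library, beside log2 fold changes (IP over Input). Per the submitters' processing notes, FastQC 0.12.0 and hg38 were used. For aligner, counter and strand setting the entry is: not given in the sources used here. No mock immunoprecipitation was analysed. Whole reads were recovered for 14913 features, including all 10 mRNAs, from the RPKM values and the deposited log2 fold changes (a prior of 0.125 reads, tolerance 0.01 reads), a step tested on simulated data. The recovered gene lengths of all 10 equalled their exon union in GENCODE 29. Calls used log2((IP + 1)/(Input + 1)) in the 9880 features whose mean reached 1 RPKM. Ratios have exact conditional (Clopper-Pearson) 95% intervals. The members and gene lists were chosen with earlier results of these data known. The coding-length groups, the promoter motifs and the alternatives with 20 reads or like exon length were chosen after the data were seen. From each list the 2 highest and 2 lowest genes were named, with CSTF2, paralogs, overlapping genes and nearest features. CENPQ and KNTC1 were named after their values were seen. Python 3.11.15, pandas 2.3.3 and scipy 1.17.1 were used.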

Additional observations from a re-analysis of the deposited data

How the results depend on the processing

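No paired analysis was possible because each group has 1 library. The number of the 10 mRNAs at least 2-fold higher (2) became 1, MKI67 alone, with a pseudocount of 5 RPKM, on centring by the median of all features, trimmed mean scaling, a 4-fold threshold, the counting interval, or centring on genes of like exon length. For MKI67, of 12807 exon bases, the like-length group was the open one of 10005 to 118976 bases, so the match in length is loose. The number lower (2) became 1, CDKN3 alone, with a pseudocount of 5 RPKM, a mean of at least 5 RPKM (7 of the 10 left), a 4-fold threshold, or the counting interval. Scaling to the reads of nuclear features left both numbers at 2. MKI67 stayed between 1.54 and 2.14 and CDKN3 between -2.82 and -1.64 on the log2 scale over 9 alternatives each, and CCNB2 between -1.39 and -0.57 over 8. CCNB1 changed sign (-0.00191 centred on the median, -0.05 with trimmed mean scaling). The other 9 kept theirs in every alternative that could be computed. The median of the 10 became 0.0369 centred on the median of all features and -0.00325 with trimmed mean scaling.

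In the other mitotic lists, the 11 higher genes became 5 with a pseudocount of 5 RPKM, 7 on centring or trimmed mean scaling, 30 and 0 at 1.5-fold and 4-fold, and 6 on like-length centring. The 6 lower were 13 at a pseudocount of 0.1 RPKM, 0 at 5 RPKM, 1 if the mean had to reach 5 RPKM, 10 on centring or trimmed mean scaling, 19 and 0 at 1.5-fold and 4-fold, and 3 by the counting interval. Over all features, the 976 higher were 1830 at a pseudocount of 0.1 RPKM, 186 at 5 RPKM, 327 if the mean had to reach 5 RPKM, 2569 at a 1.5-fold threshold, 151 at a 4-fold one, and 632 if 20 reads were required. Those 976 became 684 and the 675 lower 944 on centring, which moved the median of all features by 0.17, and 661 and 921 with trimmed mean scaling. The 675 lower became 1023, 295, 407, 1484 and 149 under those pseudocount, mean and threshold settings, in the same order, and 284 by the counting interval. Depth limits CDKN3 and CCNB2 most, with 15 and 18 reads in the IP.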
